A study of Homo sapiens with 2 samples.

Results

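The Notch receptors NOTCH1, NOTCH2 and NOTCH3, the ligands JAG1, JAG2 and DLL1, and the transcriptional targets HES1, HES2, HES5 and HEY1 were examined in oral squamous cell carcinoma (OSCC) cells infected with a lentiviral vector for the long noncoding RNA DLEU1. Every non-control probe whose gene name was that of a member was taken, which gave 10 genes and 15 probes of 43317 gene names and 58201 probes on the array. A single probe represented 6 of the genes and several probes the other 4. With the DLEU1 vector, 4 of the 9 members that could be measured were at least 2-fold higher, namely NOTCH3, JAG1, HES1 and HES2, and 0 were at least 2-fold lower. Over all genes, 9.18% passed 2-fold upwards and 9.78% downwards. Earlier results of these data were known when the members were picked, so the contrast with all genes is not an independent one. The same holds for a wider list of 48 pathway genes without these members. Of its 42 measured genes, 4 (9.52%) passed this limit upwards and 3 (7.14%) downwards, near the shares of all genes.

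Both groups were Ca9-22 cells, an established OSCC line. One had been infected with a lentiviral vector carrying full-length DLEU1 cDNA and the other with a control vector, and both were then kept under blasticidin selection. Each group was a single RNA sample measured on 1 Agilent 1-colour array, so no test, p-value or replicate error could be computed, and the number of arrays limited the precision of every value. Effects of DLEU1 and other differences between the 2 cell populations cannot be told apart.

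Notch receptors are single-pass membrane proteins that are switched on by ligands of the Jagged and Delta families on a neighbouring cell. Cleavage by an ADAM protease and then by gamma-secretase frees the intracellular domain, which enters the nucleus, binds the DNA-binding protein RBPJ together with a Mastermind co-activator, and turns on repressor genes of the HES and HEY families. In stratified squamous epithelium, Notch signalling promotes the switch from dividing basal cells to differentiating suprabasal cells, and NOTCH1 is often inactivated by mutation in head and neck squamous cell carcinoma.

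RBPJ recognises a core written TGGGAA, and it was searched on both strands in the 250 bases upstream of each gene start in the RefSeq promoter table (GRCh38.p14). A window was present for 8 of the 10 members, all except DLL1 and HEY1. The core occurred in 2 of the 8, HES1 and HES5, and in 20.8% of all 35116 windows. G and C made up 59.2% (HES1) to 81.6% (JAG2) of the member windows, against a median of 58.0% over all windows. The share over all windows is thus not matched for base composition. The windows of both genes are printed first, since each holds 2 cores, followed by those of HES2 and NOTCH3, the members with the largest differences between the arrays. Each is written 5′ to 3′ on the strand of its gene, and capitals mark TGGGAA or its reverse complement TTCCCA.
HES1, chr3:194135898-194136147, plus strand: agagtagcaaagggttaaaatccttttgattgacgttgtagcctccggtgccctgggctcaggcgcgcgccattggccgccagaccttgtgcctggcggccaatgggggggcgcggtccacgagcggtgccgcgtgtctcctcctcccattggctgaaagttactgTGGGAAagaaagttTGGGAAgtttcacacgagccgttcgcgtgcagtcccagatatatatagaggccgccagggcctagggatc
HES5, chr1:2530264-2530513, minus strand: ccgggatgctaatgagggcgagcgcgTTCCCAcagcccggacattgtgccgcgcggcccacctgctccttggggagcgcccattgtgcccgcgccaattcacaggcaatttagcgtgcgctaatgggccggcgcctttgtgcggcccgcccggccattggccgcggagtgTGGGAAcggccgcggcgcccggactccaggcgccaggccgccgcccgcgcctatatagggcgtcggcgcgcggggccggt
HES2, chr1:6419920-6420169, minus strand: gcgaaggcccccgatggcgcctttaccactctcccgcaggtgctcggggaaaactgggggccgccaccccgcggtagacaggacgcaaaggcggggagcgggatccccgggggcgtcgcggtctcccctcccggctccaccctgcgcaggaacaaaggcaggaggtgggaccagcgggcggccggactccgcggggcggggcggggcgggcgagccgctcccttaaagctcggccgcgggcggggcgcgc
NOTCH3, chr19:15200996-15201245, minus strand: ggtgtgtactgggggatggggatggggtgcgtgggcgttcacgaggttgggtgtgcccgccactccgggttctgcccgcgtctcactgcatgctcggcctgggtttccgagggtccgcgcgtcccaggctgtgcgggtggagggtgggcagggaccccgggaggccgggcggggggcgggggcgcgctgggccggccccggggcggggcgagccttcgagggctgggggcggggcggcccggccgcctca

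In HES1 the cores lay 84 to 79 and 70 to 65 bases upstream of the start, both on the strand of the gene. In HES5 one lay 80 to 75 bases upstream on the strand of the gene and the other 224 to 219 bases upstream on the opposite strand. The longer form GTGGGAA, which contains the core, occurred in the windows of HES1 and HES5 and in 5.43% of all windows. HES repressors bind the N-box, searched as CACNAG, and the class C site, searched as CACGCG. The HES1 window held 3 matches to CACNAG and 2 to CACGCG, the NOTCH3 window 1 match to CACNAG, and the JAG2 window 1 match to CACGCG. Of all windows, 32.0% held CACNAG and 9.72% held CACGCG. A match describes letters and is not a shown binding site, its absence says only that these letters are not in the window, and the arrays measured no binding.

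**Figure D1:**
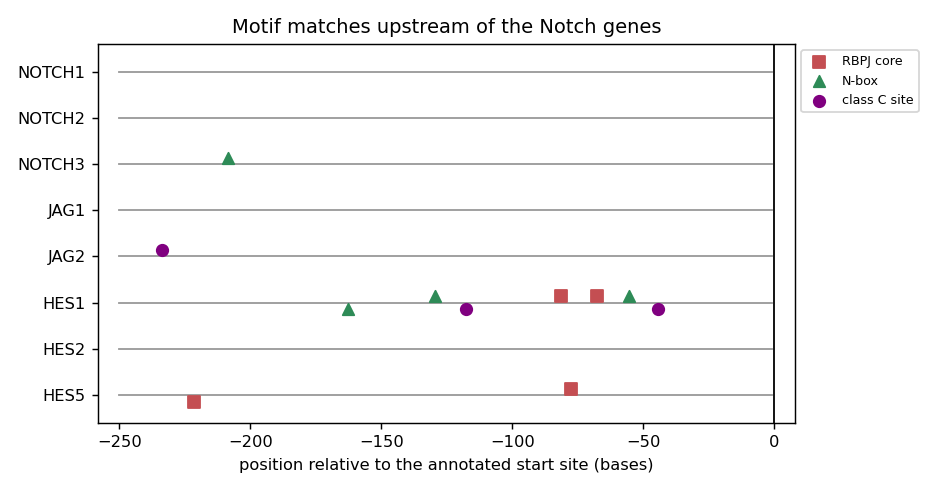
Position of motif matches in the 250 bases upstream of the gene start, in bases from the start, for the Notch genes with a RefSeq promoter window. Symbols mark the motif searched, above the line on the strand of the gene and below it on the opposite strand. The 2 RBPJ cores of HES1 lie close together within 84 bases of the start, whereas those of HES5 lie at 80 and 224 bases.

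Levels below are the processed signal on the log2 scale after subtracting the 75th percentile of the array, so 0 is the 75th percentile, and differences are DLEU1 vector minus control vector. The level of a gene is that of its brightest probe well above background on both arrays. The share of probes well above background was 47.6% for the control vector and 48.1% for the DLEU1 vector. DLEU1 itself was checked first, and its brightest probe had a level of 3.17 in control vector cells and 5.91 in DLEU1 vector cells, which was 6.67-fold higher. The other 2 DLEU1 probes, both dimmer, were 1.81-fold and 1.46-fold higher. All 8 squamous markers (KRT5, KRT14, KRT6A, TP63, SFN, CDH1, DSP and PKP1) were well above background on both arrays. As a technical scale, 282 probes spotted several times had an SD of 0.08 in the log2 difference, and different probes of 1 gene had a pooled SD of 0.47 over 4674 genes. Neither value holds the variation between cultures.

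Of the 15 Notch probes, 14 were well above background on both arrays, and 5 of the 14 were at least 2-fold higher, against 8.98% of all probes. None of the 14 was at least 2-fold lower (0 probes, against 9.78% of all probes). The median difference of the 9 measured genes was 0.40, whereas that of all 20246 genes was -0.07 with an SD over genes of 0.90. Scaling on spike-in probes lowered every gene by the same 0.46, to medians of -0.061 and -0.53, so the gap of 0.47 between them could not change. Signs are therefore read here relative to the 75th percentile. Over all alternative settings the gap ran from 0.19 with probes averaged to 0.63 with quantile scaling. The 5 genes between the thresholds ranged from -0.31 to 0.40. No Notch probe lay in an area of local signal loss on the slide (0 of 15), and the median difference of the spots around each probe was between -0.13 and 0.05. Each Notch probe had a single spot, so none had a spot replicate of its own.

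**Figure D2:**
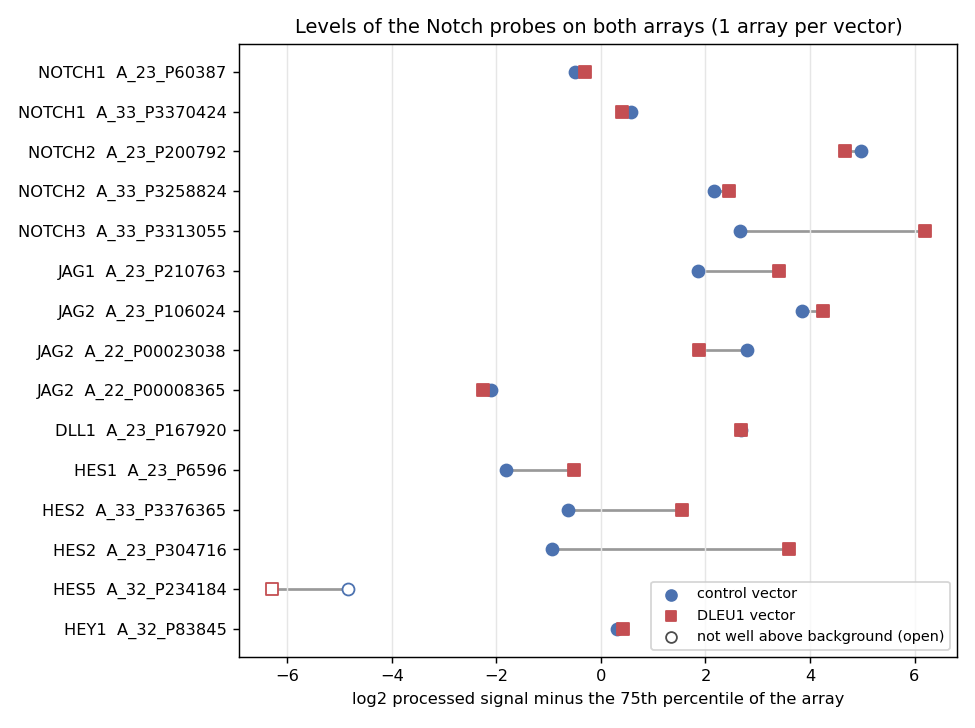
Log2 level of each of the 15 Notch probes relative to the 75th percentile of its array, for the control vector (circles) and the DLEU1 vector (squares), 1 array each and so without error bars, with open symbols for HES5, which was not well above background. The squares of NOTCH3, JAG1, HES1 and both HES2 probes lie at least 2-fold above their circles, while the other measured probes differ by less than 2-fold.

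Among the receptors, NOTCH3 was the member that differed by 2-fold or more. NOTCH3 is the receptor best known in vascular smooth muscle and pericytes, and it is also expressed in differentiating keratinocytes. Its probe A_33_P3313055 (chr19:15270489-15270548, hg19, minus strand) gave a processed signal of 1522 in control vector cells and 17317 in DLEU1 vector cells. The log2 level went from 2.65 to 6.20, a difference of 3.55 or 11.7-fold, which stood 68th from the highest among 20246 genes. The signal errors that the scanner software gave on each array, when combined, put an error of 0.20 on this difference. JAG1 and DLL1 had the same 0.20, so this error is not particular to NOTCH3. Of 15 alternative settings, 9 changed the NOTCH3 value, and under these it was between 3.08 and 3.78.

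The markers of other cell types that can carry NOTCH3 were read beside it. Of 6 fibroblast markers, 2 were well above background in control vector cells and 3 in DLEU1 vector cells, and their summed processed signal was 375 and 5292. COL1A1, a fibrillar collagen chain, accounted for most of this, with levels of 0.47 and 4.47. COL1A2, COL3A1 and DCN were not well above background on either array. PDGFRB, the pericyte and fibroblast receptor, differed by -0.33, while LUM, a fibroblast proteoglycan, was well above background in DLEU1 vector cells only. Of 4 endothelial markers, 2 were well above background on each array, with a summed signal of 111 and 652. VWF differed by 3.70, whereas CDH5, with dim levels of -2.14 and -2.73, differed by -0.59. PECAM1 and KDR were not well above background. The 4 leukocyte markers with a probe summed to 302 and 247. Squamous markers summed to 232686 and 498582. KRT6A differed by 2.91, KRT14 by 2.85, PKP1 by 2.28, KRT5 by 2.10, DSP by 1.37 and CDH1 by 1.04. TP63 differed by 0.96, and SFN, the brightest on the control array, by 0.0015. The part of any of these cell types in the NOTCH3 value was not tested.

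NOTCH1, the main receptor of epidermal differentiation, had 2 probes on opposite sides of 0. The brighter, A_33_P3370424 (chr9:139390523-139390582), gave signals of 360 and 310 and a log2 difference of -0.18. The other, A_23_P60387 (chr9:139389764-139389823), gave 171 and 192 and a difference of 0.20. The gap between them was 0.38, smaller than the pooled SD between probes of a gene, and no direction could be given for NOTCH1.

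NOTCH2, a broadly expressed receptor, also had probes that disagreed in sign. A_23_P200792 (chr1:120454858-120454917) gave signals of 7641 and 6012 and a difference of -0.31. A_33_P3258824 (chr1:120539807-120539866) gave 1079 and 1296 and a difference of 0.30. The deposited annotation of the latter also lists a transcript of NOTCH2NL, a partial copy of NOTCH2, so its signal cannot be assigned to NOTCH2 alone. It is printed for this reason, all in lower case since no single base is singled out, and it carries the sequence of an EGF-like repeat.
NOTCH2 A_33_P3258824: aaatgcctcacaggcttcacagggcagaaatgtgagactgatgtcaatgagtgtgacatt

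Among the ligands, JAG1 was the one at least 2-fold higher. JAG1 is a Jagged ligand found above the basal layer in squamous epithelium and is itself induced by Notch in several tissues. Its probe A_23_P210763 (chr20:10619061-10619120, minus strand) gave signals of 883 in control vector cells and 2501 in DLEU1 vector cells. The level went from 1.87 to 3.41, a difference of 1.54 or 2.91-fold, 817th from the highest of 20246 genes. Under the 9 alternative settings that changed the JAG1 value it lay between 1.08 and 1.67, at least 2-fold in each.

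JAG2, the other Jagged ligand, is a gene whose 3 probes did not move together. The brightest, A_23_P106024 (chr14:105608674-105608733), went from 3474 to 4473, a difference of 0.40. A_22_P00023038 (chr14:105618531-105618590) went from 1671 to 868, a difference of -0.91, or 1.88-fold lower. A_22_P00008365 (chr14:105622147-105622206) gave dim signals of 56.4 and 49.6 and a difference of -0.15. The highest and lowest probe differed by 1.31. The pooled SD of 0.47 between probes of a gene describes single probes, and a range over 3 probes is not directly comparable with it. The pair of weaker probes, both below 0 unlike the brightest, is shown to place them. A_22_P00008365 covers the DSL domain with which ligands bind Notch, and A_22_P00023038 covers an EGF-like repeat.
JAG2 A_22_P00008365: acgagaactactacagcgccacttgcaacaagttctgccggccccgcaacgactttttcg
JAG2 A_22_P00023038: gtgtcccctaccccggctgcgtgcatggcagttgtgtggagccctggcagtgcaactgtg

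The difference of JAG2 took the sign of its brightest probe, and it turned to -0.22 when the 3 probes were averaged. DLL1, a Delta ligand expressed in basal keratinocytes, had a single probe, A_23_P167920 (chr6:170591642-170591701), with signals of 1554 and 1519. Its level was 2.68 and 2.69, a difference of 0.0050.

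**Figure D3:**
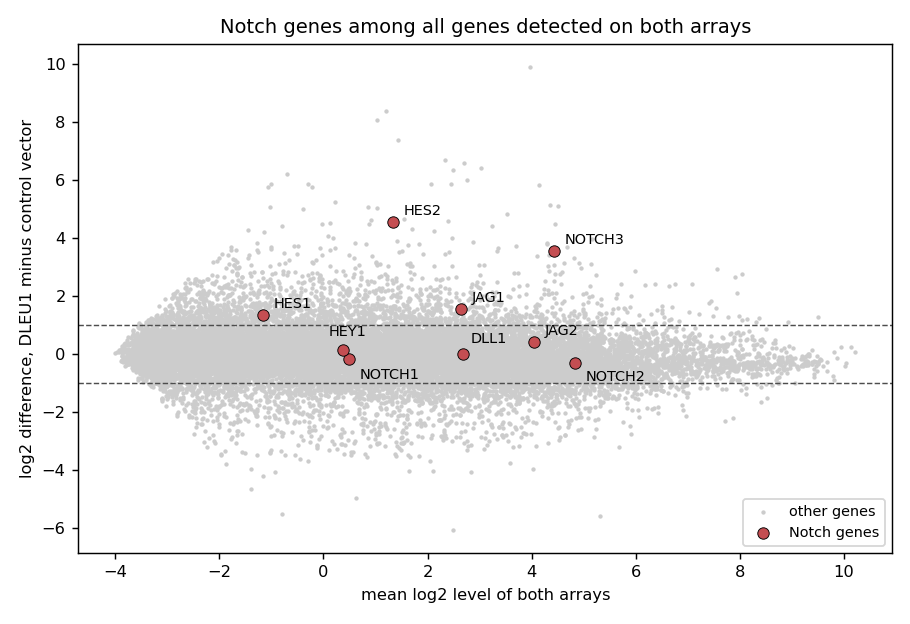
Log2 difference (DLEU1 vector minus control vector) of all 20246 genes measured on both arrays against their mean log2 level, with the 9 measured Notch genes marked. NOTCH3, HES2, JAG1 and HES1 lie above the 2-fold line, and the others lie among the bulk of genes between -0.31 and 0.40.

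Among the targets, HES2 differed most between the arrays. HES2 is a bHLH repressor of the HES family. The brighter of its 2 probes by mean level, A_23_P304716 (chr1:6475737-6475796, minus strand), gave signals of 127 and 2867, levels of -0.94 and 3.60. The difference of 4.54 or 23.2-fold was 29th from the highest of 20246 genes. The second probe, A_33_P3376365 (chr1:6473253-6473312), is annotated to another transcript and gave 156 and 691, a difference of 2.19 or 4.55-fold. Both probes were far higher with the DLEU1 vector, yet the gap of 2.35 between them makes the size of the difference uncertain. Under the 10 alternative settings that changed the HES2 value it was between 3.36 and 4.65. By its brighter probe HES2 differed more than NOTCH3, but with probes averaged it differed less, 3.36 against 3.55.

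HES1, the most widely used readout of Notch activity, was higher by a smaller margin and from a dim signal. Its probe A_23_P6596 spans 188 bases of the genome (chr3:193854276-193854463, plus strand), as a 60-base probe across an exon junction does, and it carries the sequence of the basic, DNA-binding region of the bHLH domain. It is printed because HES1 rests on it alone.
HES1 A_23_P6596: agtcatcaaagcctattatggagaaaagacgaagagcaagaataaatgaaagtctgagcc

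The HES1 probe gave a signal of 68.3 in control vector cells, against 166 in DLEU1 vector cells, with levels of -1.83 and -0.51. The difference was 1.32 or 2.49-fold, 1134th from the highest of 20246 genes. The HES1 difference was under 2-fold in 2 alternative settings, 0.81 after normexp background correction and 0.85 after scaling on spike-in probes. With a signal of at least 100 required on both arrays it could not be given.

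HEY1, a relative of HES1 with a YRPW motif, had signals of 301 and 318 from a single probe and a difference of 0.12. HES5, a target best known in neural progenitors, had signals of 8.40 and 3.003 that were not well above background on either array, and it has no fold. The 4 targets thus ranged from no measurable signal to a 23.2-fold difference. The HES1 and HES5 windows, the ones with RBPJ cores, belonged to a gene that was 2.49-fold higher and to one with no measurable signal.

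**Figure D4:**
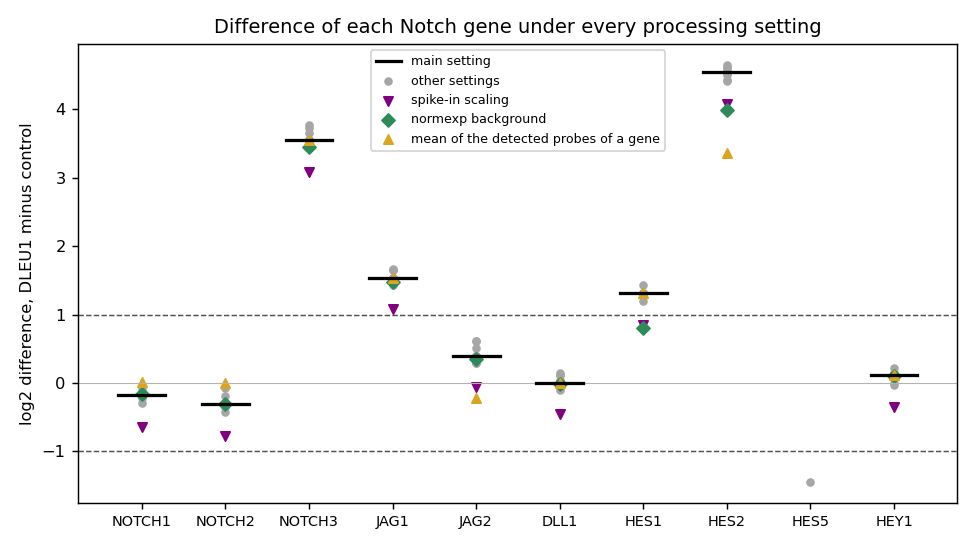
Log2 difference of each Notch gene under the reported setting and the 15 alternative settings of scaling, background correction, filter and probe choice. NOTCH3, JAG1 and HES2 stay above the 2-fold line in every setting shown, HES1 drops below it in 2, and NOTCH1, JAG2, DLL1 and HEY1 cross 0. The dashed lines mark 2-fold, and the single point of HES5 is from the setting without a filter on dim probes.

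Other genes of the pathway were read from a list of 48 genes ordered by role. A total of 42 were measured on both arrays, of which 4 (9.52%) passed 2-fold upwards and 3 (7.14%) downwards, against 9.18% and 9.78% of all genes. The shares were thus near those of all genes. The median difference was 0.18, against -0.07 for all genes, and 27 of the 42 genes were above 0, against 45.8% of all genes. DLL3, DLL4, MAML2, DTX1 and DTX3 were not well above background on either array.

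Among the other receptors and ligands, NOTCH4, a receptor of the endothelium, was 2.35-fold lower (levels -2.18 and -3.41), but from a dim signal, and the difference was -0.34 after normexp. DLK1, a non-canonical ligand, had a difference of 0.47. Among 6 further targets, NRARP, an ankyrin-repeat inhibitor that Notch induces, was 4.25-fold higher, with levels of 4.005 and 6.09, on the 1 of its 2 probes that was measured. It stayed at least 2-fold higher in the 9 alternative settings that changed its value, between 1.62 and 2.34. The promoter window of NRARP held 0 RBPJ cores. HES6, an antagonist of HES1, was lowest among these at -0.32 by its brightest probe, but its 4 probes ranged from -0.35 to 0.56 and gave no direction.

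Of the genes that glycosylate Notch, the Fringe enzyme MFNG was 5.01-fold lower, with levels of 1.22 and -1.10. It stayed at least 2-fold lower in the 9 alternative settings that changed its value, from -2.79 to -1.86. The spots around the MFNG probe had a median difference of -0.31, and with local medians taken off the MFNG difference was -2.11. LFNG, a relative of MFNG, had a difference of 0.96, with 0.31 on a second probe. POFUT1, which attaches fucose to Notch and is named after its value was seen, was 1.98-fold lower, and its 3 probes ranged from -0.98 to -0.29. Among the proteases and gamma-secretase subunits all 8 measured genes were above 0 by their brightest probe, against 45.8% of all genes, from 0.0041 for ADAM17 to 1.22 for APH1B, a gamma-secretase subunit that was 2.34-fold higher. Their median was 0.36, and spike-in scaling, which shifted all genes alike, put 3 of the 8 above 0. APH1B was dim, with levels of -2.42 and -1.20, and after normexp it differed by 0.71. With a signal of at least 100 required on both arrays its difference could not be given.

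Of the nuclear factors, the co-repressors TLE2 and SPEN were 2.21-fold and 2.12-fold higher, and the second SPEN probe differed by 0.28. Both were short of 2-fold with spike-in scaling, at 0.68 for TLE2 and 0.62 for SPEN. The TLE2 signal was dim, with levels of -1.36 and -0.21. RBPJ itself differed by -0.34. MAML3, a Mastermind co-activator, was well above background on the DLEU1 vector array only, at least 1.33-fold to at least 1.41-fold higher on its 3 probes, each bound taken against the lowest signal well above background on the control array. Among genes of trafficking and turnover, FBXW7, which marks the Notch intracellular domain for degradation, was 3.47-fold lower, with levels of 1.73 and -0.07. The spots around it had a median difference of -0.32, and with local medians taken off the FBXW7 difference was -1.57. MIB1, a ligase that activates Notch ligands, was highest in this group at 0.95.

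**Figure D5:**
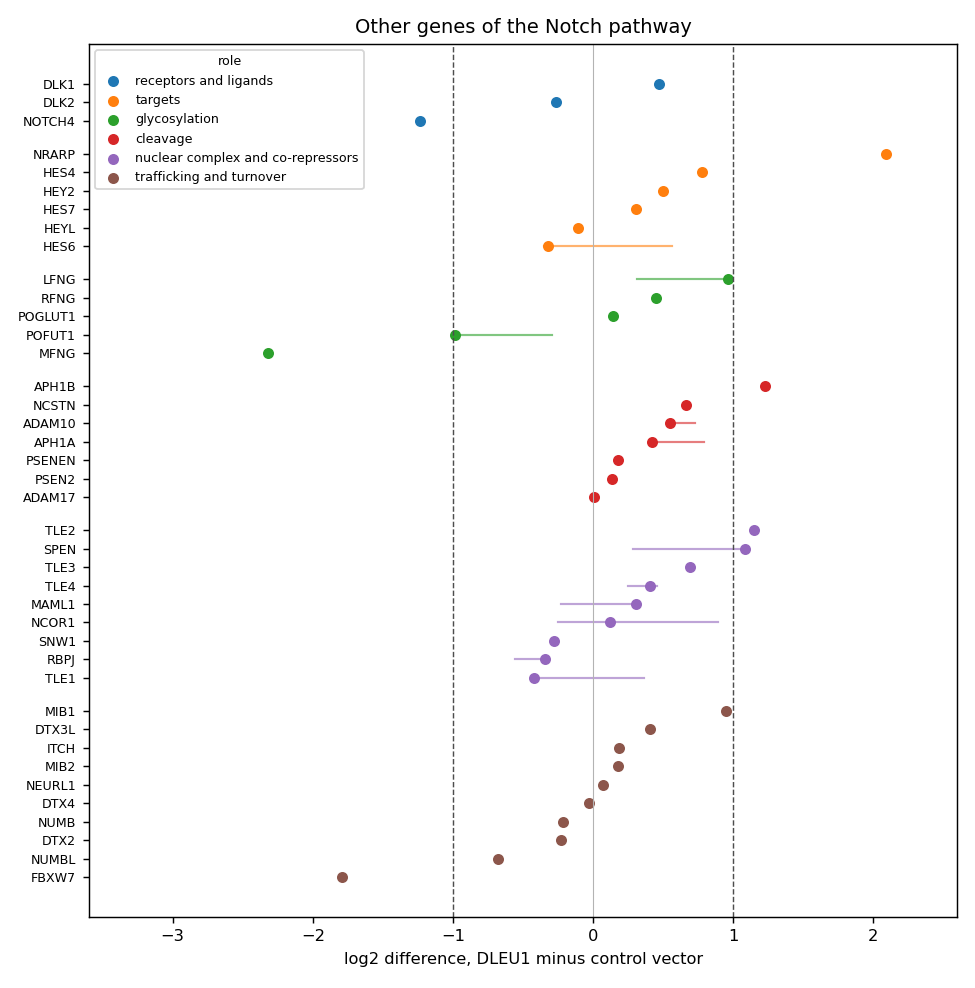
Log2 difference (DLEU1 vector minus control vector) of 40 of the 42 measured genes of the wider Notch list by role. Dashed lines mark 2-fold, and horizontal bars give the range over the measured probes of a gene. NRARP, APH1B, TLE2 and SPEN lie to the right of the dashed lines, and MFNG, FBXW7 and NOTCH4 to the left.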

How the data were processed

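Total RNA from 1 culture per group was hybridised to Agilent 1-colour arrays. The deposited intensity values were processed signals from Agilent Feature Extraction (10.7 in the submitters' processing notes, 10.7.3.1 per the file headers). Probe positions were those deposited, on hg19. Control spots and spots marked as outliers (84 for the control vector, 103 for the DLEU1 vector) were left out. The log2 signal of each probe was reduced by the 75th percentile of its array, 7.92 for the control vector and 7.88 for the DLEU1 vector. A probe counted as measured where the software marked it well above background on both arrays, and a difference was called at 2-fold. The percentile scaling and the 2-fold call were tested on simulated data with known differences. That test did not cover the background filter, the outlier removal, the choice of probe or the alternatives. A total of 15 alternatives were tried, among them normexp (offset 50), loess (span 0.3) and quantile scaling, in Python 3.11.15, R 4.3.3 and limma 3.58.1. The submitters' series values served as one alternative. The members, the pathway list of 48 genes and the marker lists were chosen with earlier results of these data known. All members were named, and of the pathway list those past 2-fold, those measured on 1 array and the extremes of each role, except 1 gene that is not reported here. Promoter windows came from RefSeq.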

Additional observations from a re-analysis of the deposited data

How the results depend on the processing

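With 1 array per group, no error between cultures exists for any value. Dim signals such as those of HES1, NOTCH4, APH1B and TLE2 are the least precise. No paired analysis was possible because each group had 1 array, and no array could be left out. Of 236 differences of 16 named genes under the alternatives, 87 could not or did not move, 66 moved by less than the SD between spots and 83 by more. Of the 149 that moved, 101 belonged to genes past 2-fold, of which 0 changed sign, and 48 to the others, of which 9 did. Genes past 2-fold were chosen for lying far from 0, so this contrast follows from the choice and is no measure of robustness. The differences of the others crossed 0 in 1 setting for NOTCH1, 2 for JAG2, 4 for DLL1 and 2 for HEY1. The cause of these shifts was not tested. Scaling moved the median of all genes by -0.11 (median of probes), 0.11 (percentile over measured probes) and -0.46 (spike-in probes, 8 in number), and no filter moved it by 0.11. The share of called probes that were higher was 47.9%, against 38.1%, 57.8% and 15.3% under the first 3 of these.

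The member median was 0.29 with median scaling, 0.51 with the percentile over measured probes, 0.61 with quantile scaling, 0.62 with loess, -0.061 with spike-in scaling, 0.26 with no filter and also with a signal of at least 100, 0.12 with probes averaged and 0.30 with local medians taken off. At 3-fold, 2 members were higher, and with no filter 1 was lower, HES5. The median of the wider list was 0.066 with median scaling, 0.29 with the percentile over measured probes, 0.30 with quantile scaling, 0.31 with loess and -0.28 with spike-in scaling. Its number higher was 7 with loess, 1 with spike-in scaling, 2 with normexp, 2 with a signal of at least 100, 9 at 1.5-fold and 1 at 3-fold, and its number lower was 6 with spike-in scaling and 5 at 1.5-fold. APH1B and TLE2 fell short of 2-fold with spike-in scaling (0.76 and 0.68) and normexp (0.71 and 0.78), and SPEN with median scaling (0.97), spike-in scaling (0.62) and probes averaged (0.68). Of all probes, 1151 were higher with spike-in scaling, 1329 with normexp, 5537 with no filter, 1226 with a signal of at least 100, 4772 at 1.5-fold and 958 at 3-fold. The number lower was 6370 with spike-in scaling, 5008 with no filter, 5832 at 1.5-fold and 855 at 3-fold.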

Other observations

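Transcripts next to or derived from Notch genes were read as well. NOTCH2NL had a probe with levels of 4.31 and 4.66, a difference of 0.36, and a dimmer one with levels of -3.40 and -2.52, a difference of 0.88. The noncoding transcript lnc-NOTCH2-1 had levels of -2.15 and -2.84, a difference of -0.70. HES3, a further member of the HES family, and lnc-NOTCH2-2 were not well above background on either array. These genes were chosen for their names after the member values were known.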
